A study of Mus musculus with 6 samples.

Results

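The genes described here encode the proteins of the mitochondrial ribosome. They were chosen by name and annotation alone, as protein-coding genes whose symbol starts with Mrpl or Mrps followed by a digit, which gave 78 of the 55487 genes in the deposited count table, 49 named Mrpl and 29 named Mrps. Of the 78, 77 had enough counts to be tested, and Mrpl53 did not. RNA came from MIN6, a mouse insulinoma line that serves as a stand-in for the beta cell. Cultures were lipofected either with a full-length PTHrP construct (parathyroid hormone-related protein, gene Pthlh) or with a DsRed vector, a red fluorescent protein plasmid that served as the control. RNA was taken no later than 3 days after transfection, with 3 libraries a group. All 6 libraries therefore come from lipofected cells of 1 line, and the series title asks how PTHrP bears on stress of the endoplasmic reticulum.

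The mitochondrial ribosome, or mitoribosome, translates the few proteins that mitochondrial DNA encodes, which are core subunits of the respiratory chain and the ATP synthase. Its ribosomal RNAs are mitochondrial transcripts, but all of its proteins are made in the cytosol from nuclear genes and imported. Some of these proteins descend from bacterial ribosomal proteins and others exist only in mitochondria. In beta cells, the respiratory chain supplies the ATP that links glucose metabolism to insulin release.

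Libraries held 84427033 to 94613684 counts. Counts of Pthlh were 697, 553 and 797 with the PTHrP construct and 0, 4 and 8 with DsRed. The 10 beta cell markers examined summed to between 48826 and 62297 CPM a library. The 10 markers of other cells summed to 142 to 181 CPM, of which Gcg, the glucagon gene, made up 135 to 175 CPM. Col1a2, of fibroblasts, had 3.23 to 4.12 CPM, Pecam1, of endothelium, 0.499 to 2.33 CPM and Ptprc, of leukocytes, 0.209 to 1.03 CPM. The others, of acinar, duct, delta and PP cells and Col1a1 of fibroblasts, were each below 1 CPM. The number of genes called between the groups was 9 with all 6 libraries and 213 without PTHrP replicate 2 (2 to 17 without 1 of the others), so values without that library are given beside the counts, the gene groups and the genes that it moved.

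Promoters were the one sequence feature compared. RefSeq start sites on GRCm38.p6 were found by symbol for 69 of the 78 genes. The ETS core CCGGAAG, searched as CCGGAAG or CTTCCGG in the 250 bases before the start, was present for 18 of the 69 (26.1%), for 13.1% of the 13233 tested genes with a start in that table and for 7.83% of all 27025 genes in it. The palindromic NRF1 core was present for 3 of the 69 (4.35%) against 1.57% of tested genes. The YY1 core, AAGATGGC or its reverse complement GCCATCTT, was present for 4 (5.8%) against 2.27%. An ETS and a YY1 match can overlap in the letters AAG. ETS family, NRF1 and YY1 factors are known regulators of nuclear genes for mitochondrial proteins, and a match of these letters is a description, not a binding site. The 120 bases before the start (the most upstream one for Mrpl2) are printed for 4 genes that hold the ETS core there and for 2 of the genes with the smallest p-values, Mrpl2 and Mrps9, which hold none of the 3 motifs in these bases. All 6 windows are free of annotated exons and are written in the direction of transcription. Capitals mark the ETS core in the 4 that hold it.
Mrps22 (chr9:98601680-98601799, minus strand): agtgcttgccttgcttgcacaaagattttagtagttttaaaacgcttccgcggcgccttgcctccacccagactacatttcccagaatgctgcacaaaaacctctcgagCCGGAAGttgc
Mrpl58 (chr11:115403632-115403751, plus strand): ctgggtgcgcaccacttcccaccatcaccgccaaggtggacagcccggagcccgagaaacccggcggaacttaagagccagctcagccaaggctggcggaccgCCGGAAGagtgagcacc
Mrpl34 (chr8:71464806-71464925, plus strand): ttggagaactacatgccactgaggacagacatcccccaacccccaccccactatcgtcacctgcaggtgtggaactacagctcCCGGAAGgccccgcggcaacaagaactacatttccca
Mrpl52 (chr14:54426789-54426908, plus strand): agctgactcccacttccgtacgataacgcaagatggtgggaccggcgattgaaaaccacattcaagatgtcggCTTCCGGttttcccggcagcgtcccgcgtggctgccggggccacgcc
Mrpl2 (chr17:46646101-46646220, plus strand): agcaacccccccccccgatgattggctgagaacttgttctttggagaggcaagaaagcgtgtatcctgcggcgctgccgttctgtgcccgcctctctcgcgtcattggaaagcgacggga
Mrps9 (chr1:42851113-42851232, plus strand): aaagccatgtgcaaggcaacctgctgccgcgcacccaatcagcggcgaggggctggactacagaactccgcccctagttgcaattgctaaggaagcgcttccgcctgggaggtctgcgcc

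Levels are given as CPM, counts relative to library size scaled with TMM factors, and levels of different genes are compared only per kb. Mrpl28, a bacterial-type protein of the large subunit, stood first with 103 ± 4.34 CPM per kb of annotated exon in PTHrP and 96.2 ± 4.20 in DsRed (SD, n = 3). Mrpl2, a universally conserved protein close to the peptidyl transferase centre, was second with 54.1 ± 1.71 and 47.5 ± 0.920 CPM per kb. The small subunit proteins Mrps21 (50.2 ± 2.40 and 47.9 ± 6.63 CPM per kb) and Mrps12 (46.1 ± 2.34 and 44.2 ± 1.67 CPM per kb), the latter a part of the decoding centre, came next. The gap between Mrpl28 and Mrpl2 was many times the SD of either, while Mrpl2, Mrps21 and Mrps12 lay within the spread of their neighbours in DsRed. At the other end of the tested genes were Mrpl19 (2.36 ± 0.311 and 2.23 ± 0.0995 CPM per kb), Mrps35 (2.24 ± 0.0546 and 1.96 ± 0.0729 CPM per kb) and Mrpl33 (1.71 ± 0.163 and 1.76 ± 0.348 CPM per kb). The highest tested gene was 57.4 times the lowest on this scale.

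The order rests on the length used. Annotated exons of Mrpl33 add up to 7326 bases, but its principal transcript has 478, and per kb of that transcript Mrpl33 had 26.6 CPM and rank 35 of 78 instead of 77. Mrps18a, a protein named for the small subunit that sits in the large one, moved up to second place with 89.0 CPM per kb of transcript. Mrpl28 kept the first place on both scales. Across the 77 tested genes the 2 orders had a Spearman correlation of 0.803, given as a description of genes that share libraries.

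Mrpl53, a mitochondria-specific protein of the large subunit, had 1 count in DsRed replicate 3 and 0 in each of the other 5 libraries. A count of 0 allows up to 3 counts, or 0.0315 to 0.0353 CPM depending on the library, from counting error alone. Of its 790 exon bases, 695 (88.0%) are shared on the same strand with the gene model Gm42688, which had 0.355 CPM. The treatment of reads from shared bases was not given in the sources used here. The level of Mrpl53 is therefore uncertain.

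**Figure D1:**
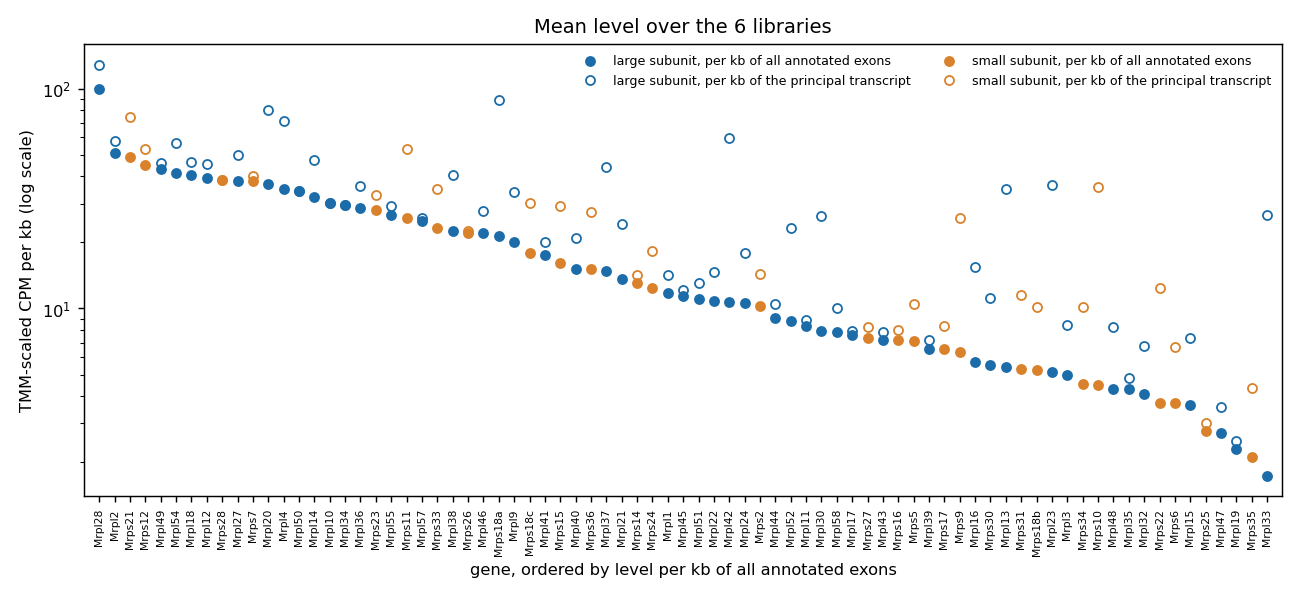
Mean TMM-scaled CPM per kb over the 6 libraries for the 77 tested genes, on a log axis, in blue for the large and orange for the small subunit, with filled points per kb of all annotated exons and open points per kb of the principal transcript. Mrpl28 is the highest on both scales, and Mrpl33 moves from the bottom to 26.6 CPM per kb when the principal transcript is used.

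Between the groups no mitoribosomal gene passed the test, and most had a slightly higher level with PTHrP. Of the 77 tested, 0 had an adjusted p under 0.05 (edgeR quasi-likelihood test), beside 0.0426% of all 21141 genes tested (0.0189% higher). The smallest adjusted p was 0.404. At an unadjusted p under 0.05 there were 9 genes with a higher level (11.7%, against 4.92% of all genes) and 0 with a lower one (against 3.98%), while 8.9% of all genes reached it in either direction. DESeq2, which called 0.907% of its genes, and limma-voom, which called 0.0426%, also called 0 of the 77, with 8 at an unadjusted p under 0.05 in each. Nothing in the labels says that replicates were separate cultures, so these p-values measure the spread between these libraries, which may be technical. In RNA from whole cultures, fewer cells of a type and less RNA per cell cannot be told apart.

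Fold changes, on the log2 scale as PTHrP minus DsRed, ran from -0.16 for Mrps6 to 0.35 for Mrpl43. They were positive for 58 of 77 genes (75.3%), beside 48.7% of all genes tested, and the median was 0.06, or 4.01% higher, against -0.01 for all genes. In 51 of the 77 the size was below 0.1. The approximate standard error (SE) had a median of 0.08. The 95% interval lay inside a 1.25-fold difference in either direction for 58 genes and inside 1.5-fold for 76, with Mrpl43 as the exception. All 3 PTHrP libraries lay above all 3 DsRed libraries for 14 genes (18.2%, against 8.45% of all genes), and below them for 2, Mrps6 and Mrps25 (2.6%, against 7.88%).

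Without PTHrP replicate 2 the picture of many small positive values was similar. Then 54 of the 77 genes had positive fold changes, beside 47.4% of all genes, with a median of 0.04 against -0.01. By the edgeR test 0 of the 77 were called, beside 0.954% of all genes. At an unadjusted p under 0.05 in this test, 7 were higher (9.09%, against 6.77% of all genes) and 0 lower (against 6.21%). The smallest adjusted p in it was 0.153, for Mrpl36. The remaining PTHrP libraries lay above all DsRed libraries for 17 genes (22.1%, against 14.7% of all genes). They lay below them for 4 (5.19%, against 15.4%).

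**Figure D2:**
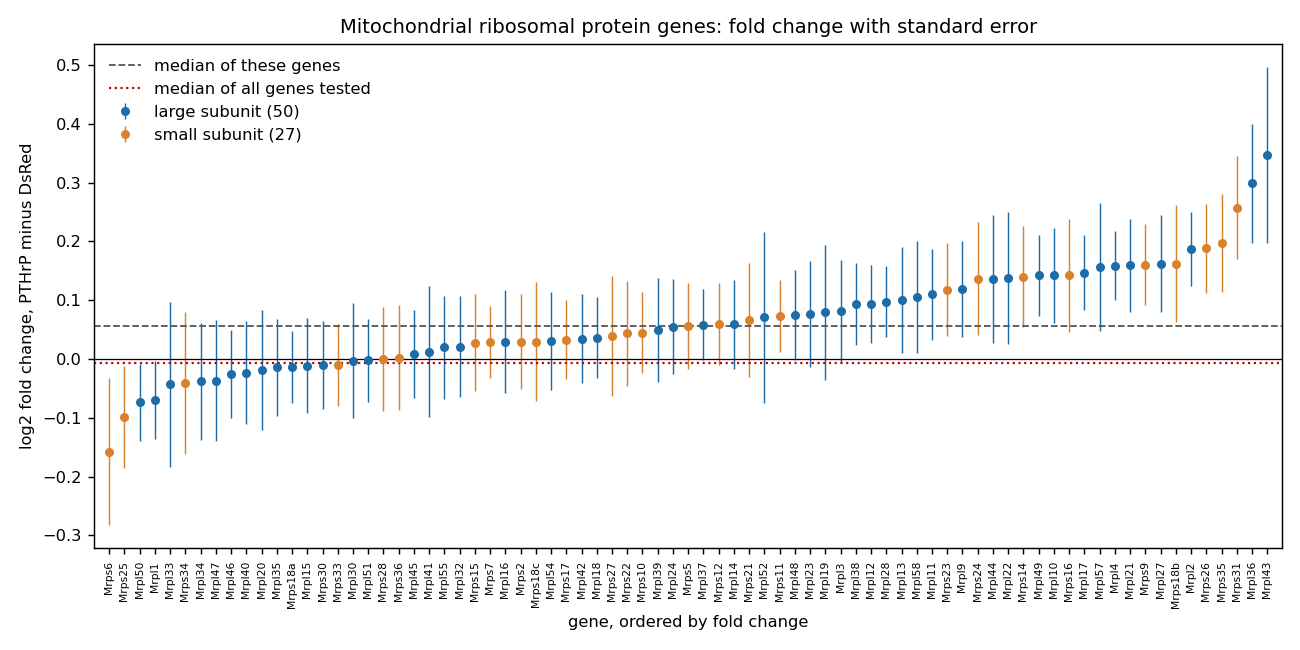
Log2 fold change (PTHrP minus DsRed) with its standard error for each of the 77 tested genes, ordered by value and coloured by the subunit that holds the protein (Mrps36 by its name). Most points lie above 0, with a median of 0.06, and many error bars cross it.

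The genes with the smallest p-values belong to both subunits. Mrpl2 had 61.0, 64.6 and 64.4 CPM in PTHrP replicates 1 to 3 and 56.4, 56.1 and 54.4 CPM in DsRed. Its groups did not overlap, and its log2 fold change was 0.19 (SE 0.06, edgeR adjusted p = 0.404). With length and GC trends removed the fold change of Mrpl2 was 0.10, and 0.17 without PTHrP replicate 2. Mrpl2 lies on chromosome 17 at 46646229 to 46650139 of GRCm38. Mrpl4, which lines the peptide exit tunnel, had 93.5, 99.7 and 95.9 CPM in PTHrP and 87.0, 85.9 and 86.0 CPM in DsRed. The DsRed libraries lay close together, all below the lowest PTHrP library, with a log2 fold change of 0.16 (SE 0.06, edgeR adjusted p = 0.446). For Mrpl4 it was 0.09 with length and GC trends removed, and 0.06 with PTHrP replicate 2 left out as well.

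Mrpl36, a small bacterial-type protein of the large subunit on chromosome 13 at 73328513 to 73332178, had 37.9, 35.8 and 36.2 CPM in PTHrP. In DsRed it had 25.9, 28.9 and 34.6 CPM. DsRed replicate 3 lay close to the PTHrP libraries, and the groups did not overlap. The log2 fold change of Mrpl36 was 0.30 (SE 0.10, edgeR adjusted p = 0.404) and ranged from 0.21 to 0.42 when 1 library was left out. Its exons share 30 bases on the opposite strand with Ndufs6, which had a log2 fold change of 0.04.

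Mrpl43, a mitochondria-specific protein of the large subunit, had the largest fold change and rested on 1 library. It had 10.0, 15.3 and 11.3 CPM in PTHrP and 9.07, 10.5 and 9.19 CPM in DsRed, so PTHrP replicate 2 stood above the others and the groups overlapped. The log2 fold change was 0.35 with a 95% interval of 0.02 to 0.68 (edgeR adjusted p = 0.535), and 0.16 without PTHrP replicate 2. Of its exon bases, 33.4% are shared on the opposite strand with Twnk, the mitochondrial DNA helicase gene, which had a log2 fold change of -0.02.

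In the small subunit, Mrps31 is mitochondria-specific and known as an islet autoantigen. It had 19.2, 19.7 and 18.4 CPM in PTHrP and 16.5, 15.0 and 16.4 CPM in DsRed. The groups did not overlap, and the log2 fold change was 0.26 (SE 0.09, edgeR adjusted p = 0.406). Mrps35, also mitochondria-specific, had 19.1, 19.9 and 19.1 CPM with PTHrP against 16.8, 17.6 and 16.3 CPM, a log2 fold change of 0.20. Mrps9, a universal protein of the subunit, had 39.0, 37.6 and 39.6 CPM against 33.8, 35.4 and 34.8 CPM, a log2 fold change of 0.16. Both kept their groups apart.

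Mrps26, mitochondria-specific as well, had 98.8, 114 and 95.7 CPM in PTHrP and 85.4, 90.3 and 94.9 CPM in DsRed. PTHrP replicate 2 was the highest, and PTHrP replicate 3 lay within 1 CPM of DsRed replicate 3. The log2 fold change was 0.19, and 0.11 without PTHrP replicate 2. Mrpl17, a bacterial-type protein near the tunnel exit, had 59.9, 60.3 and 60.7 CPM in PTHrP and 56.7, 52.3 and 54.4 CPM in DsRed. All PTHrP libraries were above all DsRed libraries, and the log2 fold change was 0.15 (SE 0.06, edgeR adjusted p = 0.535).

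**Figure D3:**
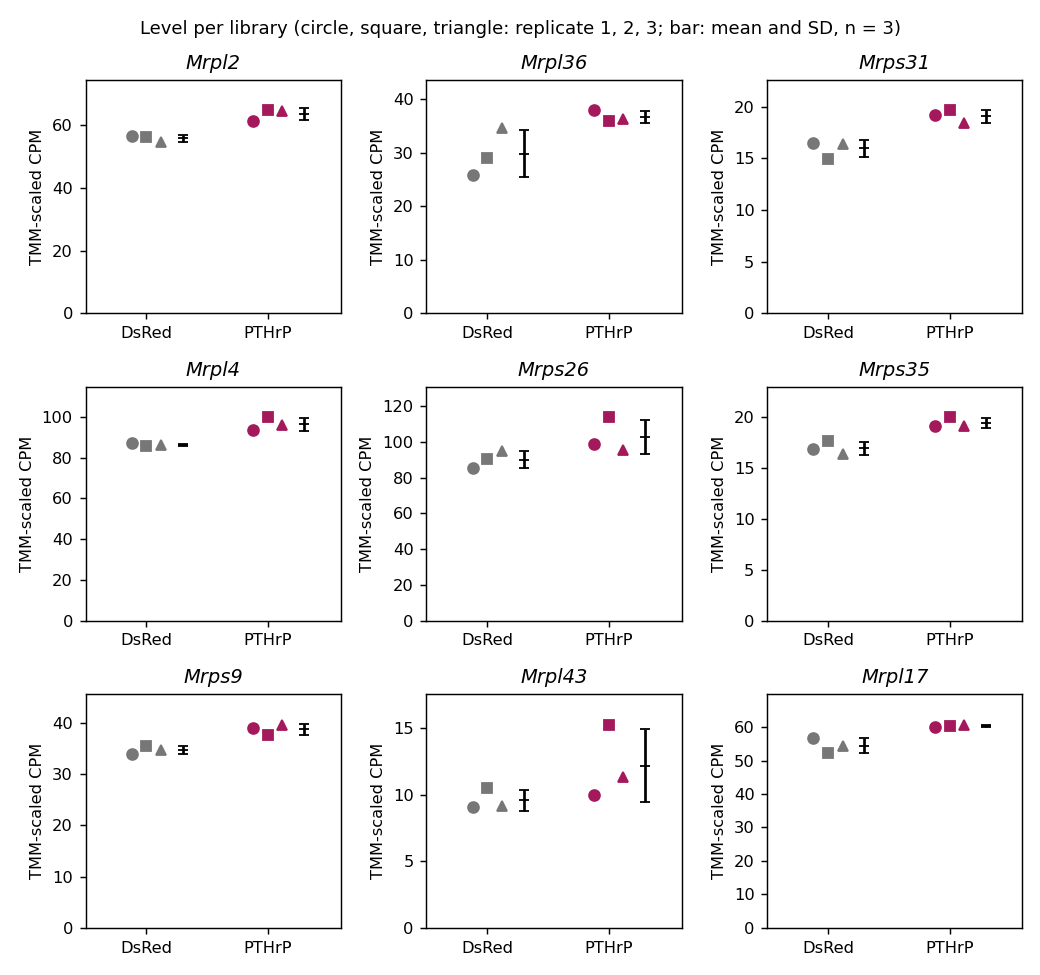
TMM-scaled CPM in each library for the 9 genes with an unadjusted p under 0.05, with replicates 1, 2 and 3 as circle, square and triangle and the mean and SD beside them. These genes were picked by their p in the same libraries, which favours groups that lie apart. In 8 of the 9 panels the groups do not overlap, while 8.45% of all genes tested were higher without overlap. Mrpl43 overlaps, with 15.3 CPM in PTHrP replicate 2.

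Negative fold changes were fewer and small. Mrps6, a bacterial-type small subunit protein on chromosome 16 at 92058270 to 92112227, had 5.11, 5.47 and 5.53 CPM in PTHrP and 5.82, 6.39 and 5.76 CPM in DsRed. The groups did not overlap, and the log2 fold change was -0.16 (SE 0.12, edgeR adjusted p = 0.757). It had 440 to 560 counts a library. Of its 1533 exon bases, 159 are shared on the same strand with Slc5a3, which had 4.33 CPM and a log2 fold change of -0.38, and 305 with Gm49711, which had 0.0133 CPM, so reads there could not be assigned by strand. Mrps25, mitochondria-specific, had 16.5, 18.3 and 18.2 CPM in PTHrP and 18.4, 19.3 and 18.9 CPM in DsRed. PTHrP replicate 2 lay just below DsRed replicate 1, and the log2 fold change was -0.10. For Mrps25, 69.8% of the exon bases are shared on the opposite strand with Nr2c2, which had a log2 fold change of -0.01, so the 2 cannot be separated there without strand. Mrpl50, mitochondria-specific, had a log2 fold change of -0.07, as did Mrpl1, of the stalk beside the tRNA exit site. Mrps34, Mrpl33, Mrpl34 and Mrpl47 had -0.04, and Mrpl46, of the central protuberance, had -0.03. For these 5 the sign turned when 1 library or another was left out. Of the exon bases of Mrps34, 63.4% are shared on the opposite strand with Mapk8ip3, which had 139 CPM and a log2 fold change of -0.12, and 37.0% on the same strand with Nme3, which had 0 counts, so the value of Mrps34 is uncertain.

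Genes with known tasks on the ribosome had mostly positive values. The 3 stalk genes had positive fold changes: Mrpl10, which anchors the stalk, had 0.14, Mrpl11, at its base, 0.11, and Mrpl12, which also binds the mitochondrial RNA polymerase, 0.09. Mrpl12 had 61.7, 59.8 and 64.1 CPM in PTHrP and 55.4, 57.3 and 61.1 CPM in DsRed, with DsRed replicate 3 above PTHrP replicate 2. Of 6 genes around the exit of the peptide tunnel, a list without Mrpl4, 5 were positive, with a median of 0.07 (0.03 without PTHrP replicate 2 and 0.03 with length and GC trends removed). Among them Mrpl45, which helps attach the ribosome to the inner membrane, had a log2 fold change of 0.01 (95% interval -0.15 to 0.17). The 7 genes of the central protuberance had a median of 0.04, with 4 positive. The 4 genes of the decoding site and mRNA channel were all positive, with a median of 0.06, but with length and GC trends removed 2 of the 4 were positive, with a median of 0.02. Mrps12 among them had 0.06 (95% interval -0.09 to 0.21), and -0.03 with these trends removed. None of these genes passed, and without PTHrP replicate 2 Mrpl10 had 0.08 and Mrps12 had 0.02.

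Other proteins of interest lay on both sides of 0. Mrpl58, a peptidyl-tRNA hydrolase that rescues stalled ribosomes, had 0.11, and 0.01 without PTHrP replicate 2. Mrpl44, an RNase III-like protein, had 0.14, and 0.08 without that library. Mrpl3, of the conserved core of the large subunit, had 0.08, and 0.01 without it. Small subunit proteins that are disease genes in humans had 0.14 (Mrps16), 0.04 (Mrps22) and 0.03 (Mrps7), and without PTHrP replicate 2 the value was 0.08 for Mrps16 and -0.01 for Mrps7. The 3 paralogs related to bacterial S18 occupy separate places in the ribosome, and Mrps18a, Mrps18b and Mrps18c had fold changes of -0.01, 0.16 and 0.03. For Mrps18b the groups did not overlap, with 11.2, 11.9 and 11.6 CPM against 9.84, 10.2 and 10.9 CPM. The sign of Mrps18a and Mrps18c turned without PTHrP replicate 2. Mrps30, the other protein named for the small subunit that sits in the large one, had -0.01. Mrps36, now assigned to the oxoglutarate dehydrogenase complex, had 0.00 (95% interval -0.19 to 0.20). Mrps30 and Mrps36 also took the other sign without PTHrP replicate 2.

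Medians by subunit and evolutionary class were positive in the fit as reported, and some moved with the library or the correction. Of 50 tested large subunit genes, counted by where the protein sits, 36 were positive with a median of 0.06. Of 27 small subunit genes, Mrps36 included, 22 were positive with a median of 0.04. Without PTHrP replicate 2, 36 of the large subunit genes were positive with a median of 0.03, and 18 of the small subunit genes with a median of 0.05. Proteins of bacterial or universal descent had medians of 0.08 in the large subunit (21 of 29 positive) and 0.05 in the small one (14 of 16). For the large subunit genes of this descent the median was 0.03 without PTHrP replicate 2. Mitochondria-specific proteins had medians of 0.03 (15 of 21) and 0.08 (7 of 10). With length and GC trends removed, the large subunit had 31 of 50 positive and a median of 0.03, and the small subunit 13 of 27 and a median of -0.0023. In that fit the small subunit genes of bacterial or universal descent had 7 of 16 positive and a median of -0.0049, and the mitochondria-specific ones had medians of 0.0078 (large) and 0.04 (small). Differences between these classes were not tested. The 5 mitoribosomal proteins with other names, Dap3, Ptcd3, Chchd1, Aurkaip1 and Gadd45gip1, had a median of 0.05 with 4 positive. The highest was Aurkaip1 at 0.17 (edgeR adjusted p = 0.574), and it had 0.10 without PTHrP replicate 2.

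Taken per library, the groups overlapped. The 77 genes summed to 2813, 3016 and 2917 CPM in PTHrP replicates 1 to 3 and to 2735, 2732 and 2846 CPM in DsRed. DsRed replicate 3 thus exceeded PTHrP replicate 1. The PTHrP mean was 5.21% above the DsRed mean, and 3.39% above it without PTHrP replicate 2. PTHrP replicate 2 was the library with the highest level for 33 of the 77 genes, beside 23.4% of all genes tested, and the lowest level fell in DsRed replicate 1 or 2 for 23 and 19 of them, beside 15.7% and 13.6% of all genes. The median within-group SD of the 77 genes was 0.078 on the log2 scale, against 0.102 for the 8224 genes of the same range of levels. Those 8224 genes were not matched to the 77 in level within that range, so the difference is only described.

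Gene length moved with the same libraries, and its part in the result was tested only by the corrections given here. The 14613 genes with a mean level above 0 on the scale log2(CPM + 0.5) were put in 4 classes of nearly equal size by exon length. The median deviation of the shortest class minus that of the longest, on the log2 scale, was 0.17 in PTHrP replicate 2 and 0.03 in DsRed replicate 3, and -0.10, -0.07 and -0.07 in DsRed replicates 1 and 2 and PTHrP replicate 1. It was 0.02 in PTHrP replicate 3. The mitoribosomal genes are shorter than most, with a median of 2533 exon bases against 3478 for all genes tested. In the class with up to 2301 exon bases, the median fold change was 0.06 over its 3654 genes, and 63% were positive. In that class the 38 mitoribosomal genes had the same median of 0.06, with 29 (76.3%) positive. In the class of 2302 to 4106 exon bases the median was 0.03 over all its genes, with 58.5% positive. The 18 mitoribosomal genes there had a median of 0.07, with 15 (83.3%) positive. From 4107 to 6586 bases all genes had 0.0004 with 50.1% positive, and 12 mitoribosomal genes had 0.04 with 8 (66.7%) positive. The longest class had a median of -0.04 over 3653 genes with 37.3% positive, and the 9 mitoribosomal genes had 0.07 with 6 positive. With length and GC trends removed from each library, 44 of the 77 genes (57.1%) were positive, beside 46.6% of all genes, with a median of 0.03 against -0.02. With length alone removed, 47 (61%) were positive.

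The cytosolic ribosome and the respiratory chain were set beside these genes. Of the cytosolic ribosomal protein genes, 68 of 79 had positive fold changes, with a median of 0.08, but 26 of 79, with a median of -0.04, without PTHrP replicate 2. The nuclear-encoded respiratory chain and ATP synthase subunits went from 47 of 77 positive (median 0.04) to 28 of 79 (median -0.02). The mitoribosomal genes went from 58 to 54 of 77 without it. With length and GC trends removed, 52 of 79 cytosolic ribosomal genes were positive (median 0.03), and 44 of 77 mitoribosomal genes (median 0.03). In that fit the respiratory chain set had 30 of 77 positive and a median of -0.02. By library, the median difference from the DsRed mean of the cytosolic ribosomal proteins was -0.09, 0.31 and 0.03 in PTHrP replicates 1 to 3, and that of the mitoribosomal genes 0.00, 0.12 and 0.07. The difference between these gene groups was not tested.

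**Figure D4:**
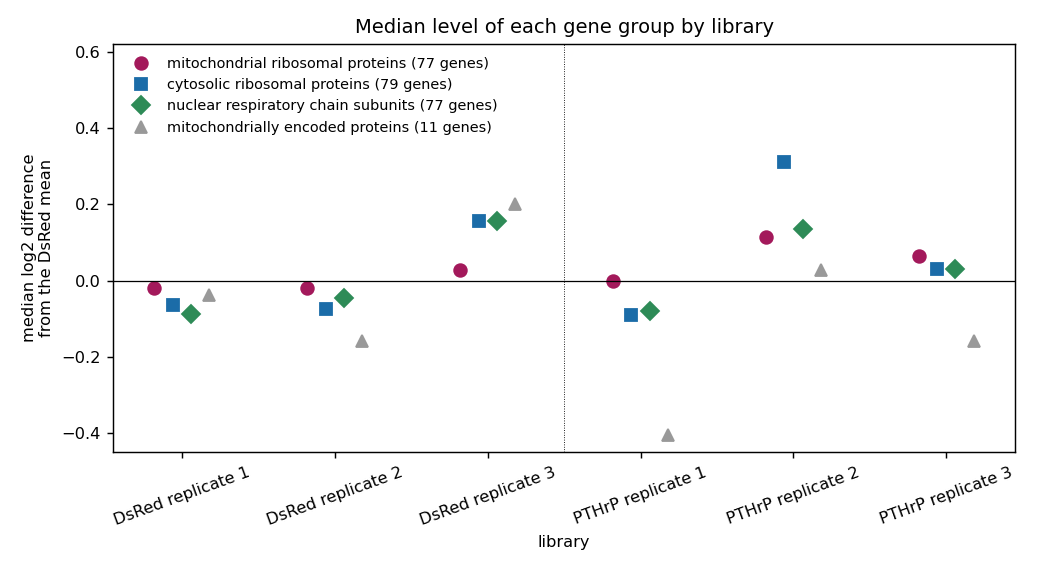
Median log2 difference of each gene group from its DsRed mean in every library, for the mitoribosomal, cytosolic ribosomal, nuclear respiratory chain and mitochondrially encoded genes. PTHrP replicate 2 and DsRed replicate 3 are the highest of their groups in every set. The mitoribosomal genes span the smallest range, from -0.02 to 0.12.

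Genes that build and run the mitoribosome also had mostly positive fold changes, and none passed. Of 26 genes for assembly and rRNA modification, 23 had positive fold changes (88.5%, beside 48.7% of all genes), with a median of 0.15. At an unadjusted p under 0.05 by the edgeR test, 5 were higher and 0 lower, against 4.92% and 3.98% of all genes. Trub2, a pseudouridine synthase, had 22.8, 23.7 and 25.7 CPM in PTHrP and 21.5, 20.6 and 19.1 CPM in DsRed, so the groups did not overlap, and its log2 fold change was 0.24 (SE 0.09, edgeR adjusted p = 0.446). Mtg2, a GTPase of large subunit assembly, had 0.24, and Ybey, an endoribonuclease, 0.41 with means of 5.01 ± 0.599 CPM and 3.78 ± 0.533 CPM (SD, n = 3). Without PTHrP replicate 2, 22 of the 26 were positive, with a median of 0.12. With length and GC trends removed, 19 were positive with a median of 0.11.

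Of 15 translation factors and partners 12 were positive (80%, beside 48.7% of all genes), with a median of 0.08. Oxa1l, which inserts the products into the inner membrane, had 25.8, 24.6 and 25.5 CPM in PTHrP and 21.4, 22.3 and 21.4 CPM in DsRed. All PTHrP libraries of Oxa1l lay above DsRed, with a log2 fold change of 0.22 (SE 0.08, edgeR adjusted p = 0.410). Mtrf1, a release factor, had 0.41, and Mtif2, the initiation factor, 0.16 (0.07 without PTHrP replicate 2). The 10 genes of mitochondrial DNA transcription and replication were split, 5 positive and 5 negative, with a median of 0.02. Tfb2m, a transcription factor of mitochondrial DNA, had -0.19, Mterf2 -0.34 and Tefm, an elongation factor, 0.16 (0.00 without PTHrP replicate 2).

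Counts of transcripts of mitochondrial DNA itself pointed the other way. Of 13 protein genes 11 were tested, and all 11 had negative fold changes, with a median of -0.23, while 48.7% of all genes had positive ones. None passed, and 3 were lower at an unadjusted p under 0.05 by the edgeR test, against 3.98% of all genes. The complex I subunit mt-Nd5 had 30.4, 36.9 and 41.1 CPM in PTHrP and 45.2, 42.3 and 47.7 CPM in DsRed, and the groups did not overlap (log2 fold change -0.32, SE 0.10, edgeR adjusted p = 0.388). For mt-Nd2 the log2 fold change was -0.36, and for mt-Nd1 -0.23. Without PTHrP replicate 2 the median was -0.34 and mt-Nd2 alone of the 11 passed (log2 fold change -0.54, edgeR adjusted p = 0.0331). In that fit 0.954% of all genes were called. The 11 genes summed to 405.5, 595.5 and 493.2 CPM in PTHrP and 555.4, 497.7 and 620.2 CPM in DsRed, so their sums overlapped. With length and GC trends removed their median was -0.24. These sums lay far below those of the 77 mitoribosomal genes, 2732 to 3016 CPM a library. Whether mitochondrial reads were lost or removed before counting cannot be told from these counts. The direction therefore describes the counts alone.

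Of 10 regulators of mitochondrial biogenesis 6 had negative and 4 positive fold changes, and none passed. The median was -0.12, and -0.03 without PTHrP replicate 2. The highest was Nrf1 at 0.10. The coactivators Pprc1, Ppargc1a and Ppargc1b, named for the smallest p in this list, had -0.23, -0.49 and -0.42. Without PTHrP replicate 2 Ppargc1a had -0.55 and Ppargc1b -0.29. Pprc1 had 95.3, 73.0 and 91.7 CPM in PTHrP and 103, 105 and 96.4 CPM in DsRed, with PTHrP replicate 2 lowest, and its fold change was -0.12 without that library. Ppargc1a was low in all libraries, with means of 1.93 ± 0.423 CPM with PTHrP and 2.72 ± 0.392 CPM with DsRed (SD, n = 3).

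**Figure D5:**
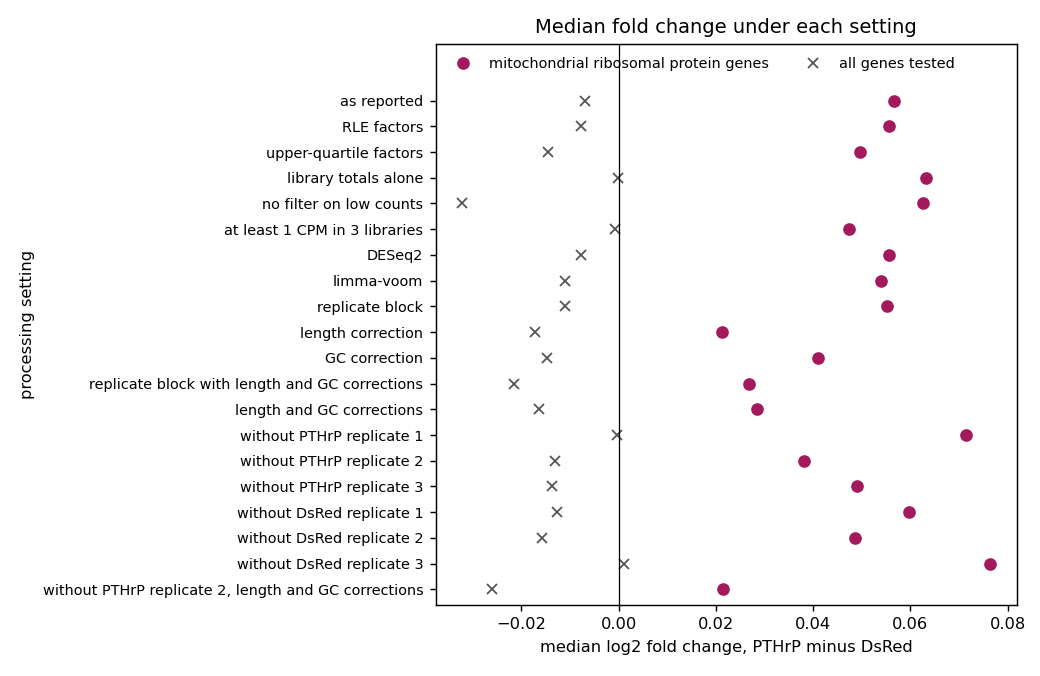
Median log2 fold change of the mitoribosomal genes and of all genes tested under each processing setting. The median of the mitoribosomal genes stays between 0.02 and 0.08 and above that of all genes in every setting run, and is lowest where the length trend is removed.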

How the data were processed

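The values are raw counts per gene and library, which the authors deposited as 1 table. Per the submitters' processing notes, bcl2fastq, STAR, Subread and featureCounts 2.0.3 were used with the mouse build GRCm38. Annotation, strand setting and the rule for ambiguous reads were not given in the sources used here. Groups and replicate numbers come from the library titles. From 55774 entries, 287 repeats of an Ensembl identifier with identical counts were dropped, which left 55487 genes and no row without a gene.

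Counts were filtered with filterByExpr by group and scaled with TMM factors, and 21141 genes were tested together with the edgeR 4.0.16 quasi-likelihood F-test (robust, group term alone, two-sided, R 4.3.3). P-values were adjusted over all of them by Benjamini-Hochberg with a threshold of 0.05. The SE is the fold change over the square root of F, an approximation, and 95% intervals use it with the fit's degrees of freedom. Alternatives were other scaling factors, other filters, DESeq2 1.42.0, limma-voom (limma 3.58.1), the replicate number as a term, lowess corrections for exon length and GC content, and each library left out. Length and GC corrections together, with all libraries and without PTHrP replicate 2, were added after the data were seen. Positions, exon lengths and principal transcripts are from GENCODE M21, and log2 levels per library carry an offset of 0.5 CPM. On simulated counts for 21141 genes of this comparison, 26% of genes changed 1.25-fold, 58% changed 1.5-fold and 80% changed 2-fold were recovered. In it 9 unchanged genes were called. The changed genes were a small sample of those above a level floor. The simulation held no length trend between libraries, so these shares do not cover low genes or that trend.

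The genes and lists were chosen with earlier results of these data known. Named genes are those past the threshold, the 8 with the smallest p in each direction, the 4 highest and 4 lowest per kb, 16 fixed genes and up to 3 of each other list. Mrpl52, Mrps9 and the other genes whose promoters are printed were picked among windows free of exons. Mrpl17, Mrpl52 and the sets of cytosolic ribosomal and respiratory chain genes were chosen after values were seen.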

Additional observations from a re-analysis of the deposited data

How the results depend on the processing

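No mitoribosomal gene was called in any of the 19 alternatives run. The median log2 fold change of these genes was positive in each of them, from 0.02 with the length correction to 0.08 without DsRed replicate 3, and 44 to 66 genes were positive. The median moved by less than the spread between libraries (0.046) throughout. The number of genes called over the whole table did move. It was 14 with library totals alone, 220 with no filter on low counts, 136 with DESeq2 and 17 with length and GC corrections, and the cause was not tested. With PTHrP replicate 2 left out and both corrections made it was 303. Leaving out 1 library gave from 2 (without DsRed replicate 2) to 213 (without PTHrP replicate 2), with 4 without PTHrP replicate 1, 4 without DsRed replicate 1, 14 without PTHrP replicate 3 and 17 without DsRed replicate 3.

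The library titles do not say whether same-numbered libraries share a batch. Same-numbered libraries correlated in their deviations from the group means at 0.17, -0.06 and -0.03 over 11777 genes. For libraries with different numbers the correlations ran from -0.225 to 0.175. With 3 libraries a group these values cannot settle whether a batch was shared. With the replicate block 7 genes were called, 0 of them mitoribosomal, and 59 of the 77 were positive with a median of 0.06. With the block and both corrections 11 were called and 46 of the 77 were positive. Of 684 values of the 36 named genes under these alternatives, 53 in 14 genes had another sign, none of them called. Set against each gene's own within-group SD on the log2 scale, 41 of the 684 moved further, all of them under the length or GC corrections. That SD is wide where 1 library stands apart. For Mrpl43 it was 0.227, and its fold change went from 0.35 to 0.16 without PTHrP replicate 2. With a median SE of 0.08, a difference of the median size seen here (0.06) was not detectable gene by gene with 3 libraries a group. The limit given for a count of 0 covers counting error only.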
